A study of Capra hircus with 20 samples.

Results

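The comparison is between the hypothalamus of goats 180 days old and that of goats 60 days old, 5 libraries on each side and 10 of the 20 libraries of the study. The members were chosen by age alone, and every miRNA of the table was kept: 683 in all, of which 407 had a known name and 276 were numbered predictions. The animals were Jining grey goats, a breed that matures early. The study measured small RNA at 1, 60, 120 and 180 days after birth. The labels name no treatment or genetic change for either age, and all animals were housed and managed alike and fed without restriction. The design text calls the 5 animals of a stage biological replicates. The labels used here give no sex, no reproductive status and no batch, so none of these could be compared between the ages. The comparison asks which hypothalamic miRNAs differ between these ages in the course of sexual development.

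MicroRNAs are short RNAs cut from hairpin precursors, whose 5p and 3p arms can each be loaded into an Argonaute protein. The loaded arm pairs through its seed with messenger RNAs and lowers their output. The hypothalamus holds the neurons that release gonadotropin-releasing hormone (GnRH), and several miRNAs, among them the miR-200 family and let-7 with its repressor LIN28, have been studied in the timing of puberty. In bulk tissue a lower level can mean fewer cells of a type or less of the miRNA per cell, and these cannot be told apart here.

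The values are RPM, a miRNA's reads scaled to a common library total. The recovered depth lay between 4353384 and 6426370 reads on day 60 and between 5651132 and 8236489 on day 180. Its mean difference was not past an exact permutation test (two-sided, p = 0.119, 0.476 adjusted over 4 library measures; n = 5 and 5). Of the other 3 measures, the number of miRNAs at 1 RPM or more averaged 388 ± 17.8 on day 60 and 387 ± 15.1 on day 180 (SD, n = 5; exact p = 0.984). The 10 most abundant miRNAs held 65.2% ± 5.01 of RPM on day 60 and 66.5% ± 4.44 on day 180 (exact p = 0.69). The median log2(RPM + 1) of the tested miRNAs was 5.38 ± 0.38 and 5.20 ± 0.27 (exact p = 0.397). Markers of the labelled tissue were abundant at both ages: the neural miR-9-5p measured 141362 ± 68036 and 137173 ± 48175 RPM, and the neuronal miR-124a 706 ± 566 and 719.6 ± 414 RPM. The muscle miRNA miR-1, which belongs to another tissue, was present as well, at 928 ± 656 and 1426 ± 1245 RPM.

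No miRNA passed the test between day 60 and day 180. Of 414 miRNAs at 1 RPM or more in at least 5 of the 20 libraries, limma called 0 (0.0% of those tested) at an adjusted p under 0.05, with a smallest adjusted p of 0.845. edgeR and DESeq2 on the recovered reads called 0 as well, with smallest adjusted p-values of 0.393 (edgeR with TMM) and 0.109 (DESeq2). At an unadjusted p under 0.05 there were 20 by limma (4.83%), 26 by edgeR and 31 by DESeq2. A mean difference of 2-fold or more on this scale was measured downward for 25 miRNAs (6.04%) and upward for 4 (0.966%). Of limma's 20, 15 lay lower on day 180 (3.62% of those tested) and 5 higher (1.21%). Each difference is the mean log2(RPM + 1) of day 180 minus that of day 60, and its median standard error was 0.52, so that a miRNA of typical error had to differ 2.09-fold to reach an unadjusted p of 0.05. A failed test does not show that levels were equal: the unadjusted 95% interval lay within a 2-fold change in both directions for 38 miRNAs (9.18%) and within a 4-fold change for 361 (87.2%).

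The distribution of differences lay slightly below 0. The median over all 414 was -0.15, and 257 of them (62.1%) lay below 0. This shift followed the scaling: it was -0.03 with median-of-ratios scaling and 0.01 with quantile scaling, so the directions of single miRNAs are given beside it. The range of the 5 animals did not overlap between ages for 8 miRNAs (1.93%), each of them lower on day 180, and for 0 in the other direction (0.0%). These 8 were miR-432-5p, miR-382-5p, miR-433, miR-454-5p, miR-105b-5p, miR-877-3p, miR-96 and miR-200c, listed because their number is small and chosen after their values were seen. miR-96 was at most 2.30 RPM in these libraries and on day 180 near or below what 3 reads give (0.364 to 0.689 RPM). The plot of difference against level shows the 20 miRNAs with an unadjusted p under 0.05 spread from rare ones to the abundant let-7c-5p and miR-101-3p.

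**Figure D1:**
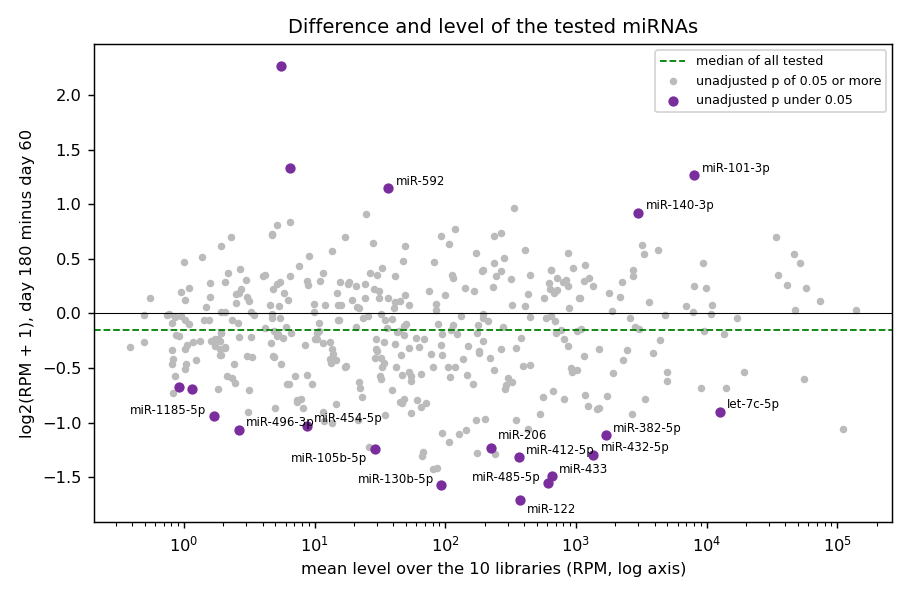
Difference in mean log2(RPM + 1), day 180 minus day 60 (vertical axis), against the mean RPM over the 10 libraries (horizontal log axis) for the 414 tested miRNAs. Purple points are the 20 with an unadjusted p under 0.05, known names labelled, and the dashed line is the median of -0.15; 0 passed the adjusted test.

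Of the lists with 10 or more tested arms, that of the DLK1-DIO3 region had the largest share on the lower side. Some shorter lists lay lower in every tested arm: the epithelial list (7 of 7), made up of the miR-200 (4 of 4) and miR-183 (3 of 3) members, and the HOX list (2 of 2). The DLK1-DIO3 region is an imprinted stretch of the genome whose many miRNAs are transcribed from the maternal copy and are abundant in neurons. Of the 68 arms of its list in the table, 60 passed the filter on low values, and 56 of 60 of these lay lower on day 180, against 257 of 414 of all tested. The median difference of its tested members was -0.44, against -0.15 over all tested and -0.04 over the 297 known miRNAs outside the list. Of the 60, 7 had an unadjusted p under 0.05 and lay lower (11.7%, against 3.62% of all tested), 0 lay higher at that p, and 0 passed the adjusted test. Their summed level was 43008, 47212, 28637, 38123 and 38032 RPM in replicates 1 to 5 of day 60 and 18890, 23788, 18910, 41836 and 29665 RPM in those of day 180. The sums overlapped: replicate 3 was the lowest library of day 60 and replicate 4 the highest of day 180, at 28637 and 41836 RPM. The mean was 39002 ± 6939 RPM on day 60 and 26618 ± 9592 RPM on day 180 (SD, n = 5).

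The count depended on single libraries. Without replicate 1 of day 60, 37 of 60 lay lower (median -0.23); without replicate 5 of day 60 it was 43 (-0.25), and without replicate 1 of day 180 it was 41 (-0.29). Over the 10 libraries left out in turn the median ran from -0.73 (without replicate 3 of day 60) to -0.23. All tested miRNAs moved as well in these fits: between 213 and 292 of 414 lay lower, with a median from -0.25 to -0.01. Under the other scalings and count tests between 46 and 58 of 60 lay lower, 46 with quantile scaling, where 203 of 414 of all tested did. Many of these arms share a precursor or a long transcript, so they are not independent observations.

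Of the 7 arms with an unadjusted p under 0.05, miR-432-5p, miR-382-5p, miR-433, miR-412-5p and miR-485-5p stood at 10 RPM or more, and miR-1185-5p and miR-496-3p below 5 RPM. miR-432-5p measured 1906, 2034, 2455, 2113 and 1139 RPM in replicates 1 to 5 of day 60 and 781, 644, 648, 1109 and 712 RPM in those of day 180. Every day-180 animal lay below every day-60 animal, with a difference of -1.29 (SE 0.43), an unadjusted p of 0.00593 and limma's adjusted p of 0.845. miR-382-5p measured 2980, 2524, 1988, 2223 and 1797 RPM on day 60 and 912, 1018, 1222, 1466 and 744 RPM on day 180, again without overlap (-1.12, SE 0.43, limma's adjusted p = 0.86). For miR-433 the values were 843, 1555, 785, 949 and 629 RPM on day 60 and 246, 338, 626, 375 and 176 RPM on day 180. Its groups were close to touching, at replicate 5 of day 60 and replicate 3 of day 180, and limma gave an unadjusted p of 0.0474 (-1.49, SE 0.72).

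miR-412-5p measured 610.0, 521, 348, 431 and 635 RPM on day 60 and 131, 215, 99.98, 402 and 273 RPM on day 180. Replicate 4 of day 180 was higher than replicate 3 of day 60, so the groups overlapped (-1.32, SE 0.48, unadjusted p = 0.0115). miR-485-5p, at 585, 1324, 612, 1571 and 474 RPM on day 60 and 270.3, 215, 149, 571 and 328 RPM on day 180, overlapped through the same day-180 library (-1.55, SE 0.61, unadjusted p = 0.0174). The most abundant arm of the region, miR-127-3p, which lies antisense to the imprinted gene RTL1, measured 10070 ± 3863 and 9141 ± 3638 RPM (SD, n = 5; difference -0.16, SE 0.39). Among the tested arms the differences thus ran from -1.55 for miR-485-5p to 0.37 for miR-376a.

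The precursors were placed in order with RefSeq's goat annotation (assembly ARS1.2), used only for names and neighbours because the sources name no build for the table. Of the 357 known miRNAs tested, 353 matched 1 precursor gene. With neighbours no more than 10000 bases apart, the region formed 2 runs. In the run from miR-493 to miR-136, 10 of 10 arms lay lower on day 180 (median -0.41), and in the longer run from miR-379 to miR-656, 47 of 49 did (median -0.47). Outside both runs 200 of 355 tested miRNAs lay lower (median -0.06). Along the longer run the arms from miR-382 to miR-485, which sit side by side, were singled out after their values were seen. Their differences were -1.12 (SE 0.43) and -0.54 (SE 0.50) for miR-382-5p and -3p and -1.27 (SE 1.03) for miR-134. For miR-485-5p and -3p they were -1.55 (SE 0.61) and -1.42 (SE 0.78). The 2 arms of that run above 0 were miR-376a and miR-487a-3p. miR-345, whose arms account for the other 2 of the list above 0, lay in neither run.

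**Figure D2:**
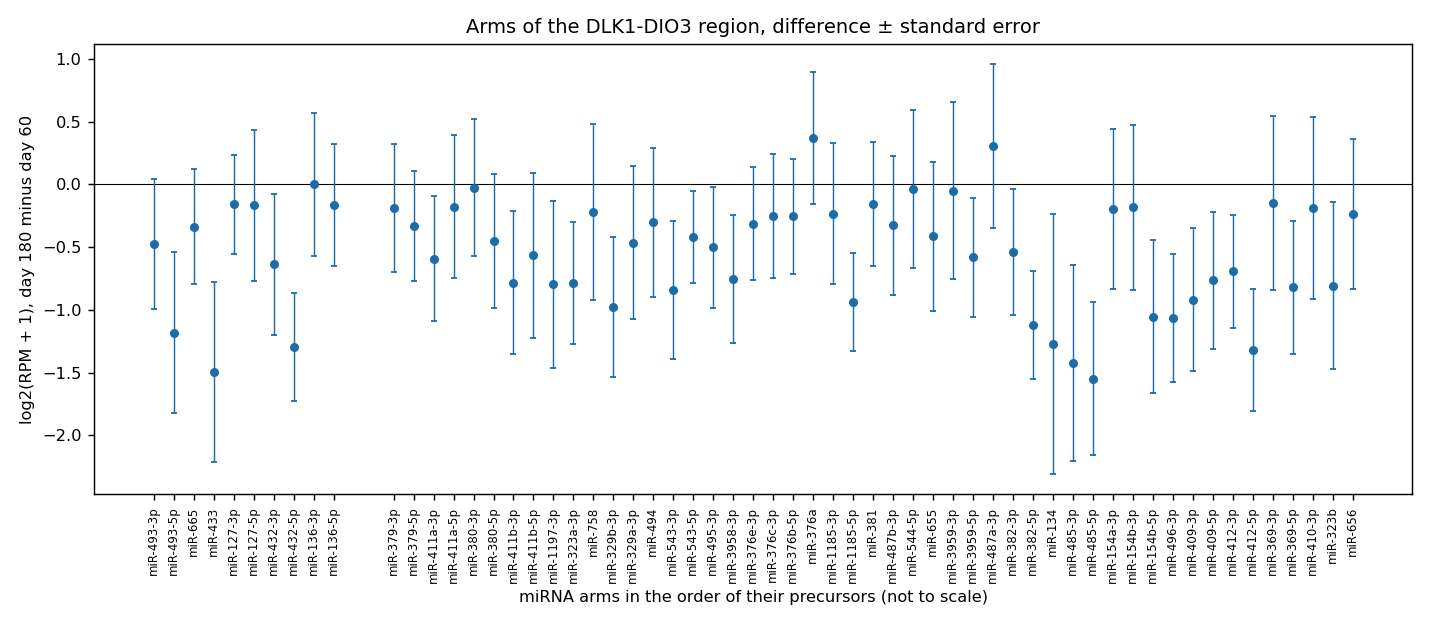
Difference in mean log2(RPM + 1), day 180 minus day 60, with its limma standard error, for the 59 tested arms of the 2 runs of the DLK1-DIO3 region in the order of their precursors (spacing not to scale). In the plot 57 of the 59 points lie below 0, and the lowest are miR-485-5p and miR-433.

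Among miRNAs higher on day 180, miR-101-3p, which represses the Polycomb methyltransferase EZH2, had the smallest unadjusted p of the known names. It measured 5832, 3400, 2132, 2991 and 9247 RPM in replicates 1 to 5 of day 60 and 5592, 11764, 7924, 7456 and 24156 RPM in those of day 180. The highest animal at each age was replicate 5, and the groups overlapped, since replicate 5 of day 60 stood above 3 of the day-180 animals (1.27, SE 0.46, unadjusted p = 0.0107, limma's adjusted p = 0.86). miR-140-3p, known for its role in cartilage, measured 2262, 1848, 1503, 1446 and 3183 RPM on day 60 and 3100, 4235, 4723, 1982 and 5745 RPM on day 180 (0.92, SE 0.43, unadjusted p = 0.0402). miR-592, at 24.0, 24.5, 11.3, 8.16 and 43.6 RPM on day 60 and 43.6, 80.3, 60.7, 11.5 and 59.3 RPM on day 180, was low in replicate 4 at both ages (1.15, SE 0.54, unadjusted p = 0.0438). Both overlapped between ages.

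Below these, 7 more known miRNAs were named by rule on the higher side, none with an unadjusted p under 0.05 in limma. They were miR-532-5p, miR-374a-3p, miR-100-5p, miR-195-3p, miR-30a-5p, miR-148a-5p and miR-34a, a target of p53, with differences from 0.55 (miR-100-5p) to 0.91 (miR-34a). Without replicate 4 of day 60 the differences of miR-34a and miR-30a-5p were 0.50 and 0.29, and that of miR-30a-5p was 0.38 without replicate 5 of day 180. That of miR-195-3p was 0.50 without replicate 1 of either age. miR-100-5p was the most abundant of them, at 37715 ± 11658 RPM on day 60 and 55905 ± 18982 RPM on day 180. miR-532-5p, from a run of miRNA genes on the X chromosome, measured 2484 ± 554 and 3903 ± 1263 RPM. In its run, with miR-188, 3 of 3 tested arms lay higher on day 180 (median 0.47). In a separate run, of miR-660, miR-500, miR-362 and miR-502b, 6 of 6 did (median 0.24), and no arm of either run had an unadjusted p under 0.05. Both runs were singled out after their values were seen. Of the 34 runs of 2 or more neighbouring precursors, 18 had every tested arm on one side of 0, 12 of them lower and 6 higher, these 2 among the latter.

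Outside the imprinted region the named miRNAs on the lower side were miR-130b-5p, miR-454-5p, miR-206, let-7c-5p and miR-122. miR-130b-5p, an arm of a precursor of the miR-130 family, measured 52.9, 206, 249.9, 124.6 and 78.3 RPM on day 60 and 53.6, 43.7, 71.1, 30.1 and 20.9 RPM on day 180. Replicate 1 of day 60 lay inside the day-180 range and the other 4 above it (-1.57, SE 0.53, unadjusted p = 0.00612, limma's adjusted p = 0.845; DESeq2's adjusted p = 0.109). Its sister arm miR-130b-3p stood at 2.20 ± 0.719 and 1.62 ± 1.30 RPM. miR-454-5p, an arm of another precursor of that family, measured 7.64, 12.1, 13.8, 18.6 and 8.56 RPM on day 60 and 7.60, 3.58, 6.55, 4.98 and 3.98 RPM on day 180 (-1.03, SE 0.41, unadjusted p = 0.0189). The lowest day-60 and the highest day-180 animal were nearly equal, at 7.64 and 7.60 RPM. The more abundant sister arm miR-454-3p averaged 34.4 RPM on day 60 and 25.3 RPM on day 180 (-0.34, SE 0.52, limma's unadjusted p = 0.52).

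let-7c-5p, of the family that accumulates as cells differentiate, measured 11035, 17868, 32947, 17426 and 5782 RPM on day 60 and 8445, 6209, 13538, 8282 and 4860 RPM on day 180. Replicate 3 of day 60 was the highest of the 10, and replicate 5 the lowest at both ages (-0.90, SE 0.42, unadjusted p = 0.0425), and without replicate 3 of day 60 the difference was -0.61. miR-122, the main liver miRNA, measured 139, 138, 233, 2540 and 124 RPM on day 60 and 142, 131, 135, 123 and 10.9 RPM on day 180. Its difference was -1.71 (SE 0.81, limma's unadjusted p = 0.0433), and -0.91 without replicate 4 of day 60 or -1.02 without replicate 5 of day 180. DESeq2's adjusted p for miR-122, with all libraries in, was 0.109, the same as that for miR-130b-5p. Apart from replicate 4 of day 60, at 2540 RPM, and replicate 5 of day 180, at 10.9 RPM, all libraries lay between 123 and 233 RPM. The muscle miRNA miR-206 measured 99.2, 184, 880.2, 299 and 188 RPM on day 60 and 169.9, 126, 133, 43.1 and 98.0 RPM on day 180, with replicate 3 of day 60 apart from the rest (-1.24, SE 0.54, unadjusted p = 0.0316), and differed by -0.78 without that replicate.

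**Figure D3:**
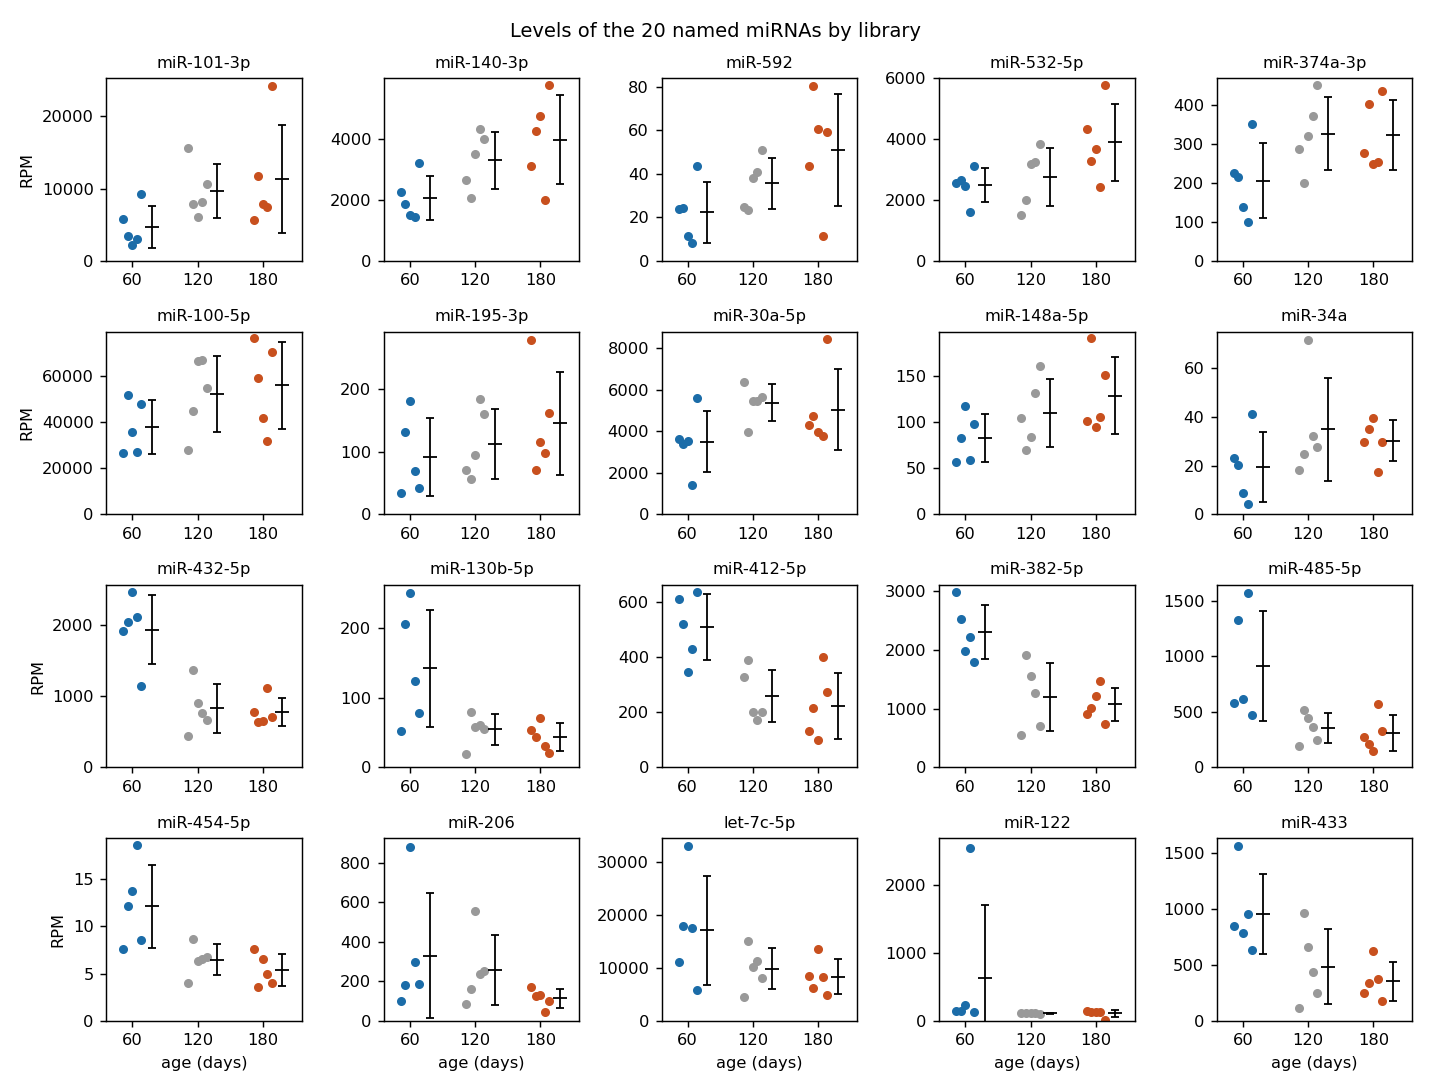
Level in RPM (vertical axes, each from 0) of the 20 named miRNAs in every library at 60, 120 and 180 days, 5 points an age, with the mean and SD beside them (SD bars cut at 0). The upper 10 panels lie higher on day 180 and the lower 10 lie lower; only miR-432-5p, miR-382-5p, miR-433 and miR-454-5p have ranges that do not overlap between day 60 and day 180.

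Day 120 entered the choice of these 20 only through the filter on low values and limma's shared estimate of the spread, not through the difference itself. In 17 of them the day-120 mean lay between the means of day 60 and day 180. For 18 of the 20 the change from day 60 to day 120 was larger in size than that from day 120 to day 180. Neither count was made over all tested miRNAs, so neither can be read as a trait of the 20. Over all tested, 13 had an unadjusted p under 0.05 in limma from day 60 to day 120, and 3 from day 120 to day 180. The median difference over all tested was 0.03 in the earlier interval and -0.15 in the later. These intervals share libraries with the whole comparison, so the values describe where the difference lay and are no separate support. miR-432-5p, for example, stood at 1930 ± 486 RPM on day 60, 827 ± 341 on day 120 and 779 ± 193 on day 180 (SD, n = 5 each), and miR-101-3p at 4720 ± 2879, 9702 ± 3710 and 11378 ± 7487 RPM.

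The let-7 family and miR-98 lay lower on day 180 in 11 of 17 tested arms, or 64.7%, close to the 62.1% of all tested. Their median was -0.53, and from -0.62 to -0.31 with a library left out (-0.31 without replicate 4 of day 180, -0.34 without replicate 3 of day 60 or replicate 5 of day 180). Of the 17, 1 had an unadjusted p under 0.05 (let-7c-5p; 5.88% lower at that p, against 3.62% of all tested). The abundant let-7f-5p measured 70357 ± 15180 RPM on day 60 and 75714 ± 12796 RPM on day 180. let-7a-5p measured 65988 ± 35168 and 45309 ± 31604 RPM. Since let-7 members are nearly alike in sequence, how reads were divided among them is uncertain. miR-99a-5p, whose precursor neighbours that of let-7c, stood at 17920 ± 8847 and 16317 ± 4142 RPM. In the miR-99, miR-100 and miR-125 family 6 of 10 tested arms lay higher (median 0.14, and 0.0090 without replicate 1 of day 60).

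miRNAs studied in puberty and GnRH neurons lay lower on day 180 in 8 of 12 tested arms (66.7%, close to the 62.1% of all tested; median -0.41), none at an unadjusted p under 0.05. Within them the miR-200 family, which in mice represses brakes on GnRH, lay lower in 4 of 4 (median -0.80). miR-200b measured 75.8, 99.7, 218, 267 and 227 RPM on day 60 and 62.5, 63.0, 71.5, 117 and 63.1 RPM on day 180 (-1.11, SE 0.75, unadjusted p = 0.152). Replicates 1 and 2 of day 60 lay within the day-180 range and the other 3 above it. miR-7-5p, abundant in neuroendocrine cells, ranged from 39062 to 229215 RPM on day 60 and from 9515 to 304600 RPM on day 180, so the range within an age exceeded the difference between the means. miR-132 and miR-212, induced by neuronal activity, were not analysed here.

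The list of epithelial markers, which were meant to show pituitary tissue as well, lay lower in 7 of 7 tested arms (median -1.01), in each of the 10 fits with 1 library of the 2 ages left out and under each scaling, with no arm at an unadjusted p under 0.05. Its 7 tested arms were the 4 of the miR-200 family and the 3 of the sensory miR-183 cluster (median -1.31), with the pituitary miRNA miR-375 not among them. Its summed level was 229.5, 215, 591, 740.3 and 524 RPM in the day-60 libraries and 251.8, 117, 148, 309 and 163 RPM in those of day 180. Replicates 3, 4 and 5 of day 60 stood above every day-180 library and replicates 1 and 2 did not. On day 120 the sum was 86.4, 291, 331, 247 and 1966 RPM in replicates 1 to 5, so 1 library carried the mean of 584 ± 778 RPM (SD, n = 5). The precursors of miR-429, miR-200a and miR-200b lay in 1 run and those of the miR-183 cluster in another, so the 7 arms are not independent observations. The part of tissue composition in the levels of these miRNAs was not tested. miR-200c and miR-96, 2 of the 7, had no overlap between ages, as had 8 of all 414 (1.93%), and miR-96 lay near the level of 3 reads on day 180.

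Among markers of other tissues and cells, the sums of the muscle and vessel lists differed widely between animals of one age. The muscle list summed to between 642 and 2311 RPM on day 60 and between 457 and 3665 RPM on day 180, lower in 2 of 6 tested arms (median 0.11). miR-1 and miR-133a-3p lay higher on day 180 while miR-206 lay lower. The vessel list, led by miR-143-3p of smooth muscle, summed to 31863, 34268, 138701, 50381 and 47345 RPM on day 60 and 181599, 40817, 51550, 33352 and 54514 RPM on day 180. Replicate 3 of day 60 and replicate 1 of day 180 stood far above the others. The vessel list lay lower in 3 of 8 (median 0.06), the erythroid list in 2 of 3 (-0.27, and -0.01 without replicate 5 of day 60), liver and gut in 1 of 4 (0.20, with miR-122 lower and miR-192-5p at 729 ± 308 and 1021 ± 189 RPM), and the HOX cluster in 2 of 2 (-0.73, and -0.48 without replicate 4 or -1.10 without replicate 5 of day 60, led by miR-10a-5p at 245 ± 180.0 and 99.7 ± 35.7 RPM).

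**Figure D4:**
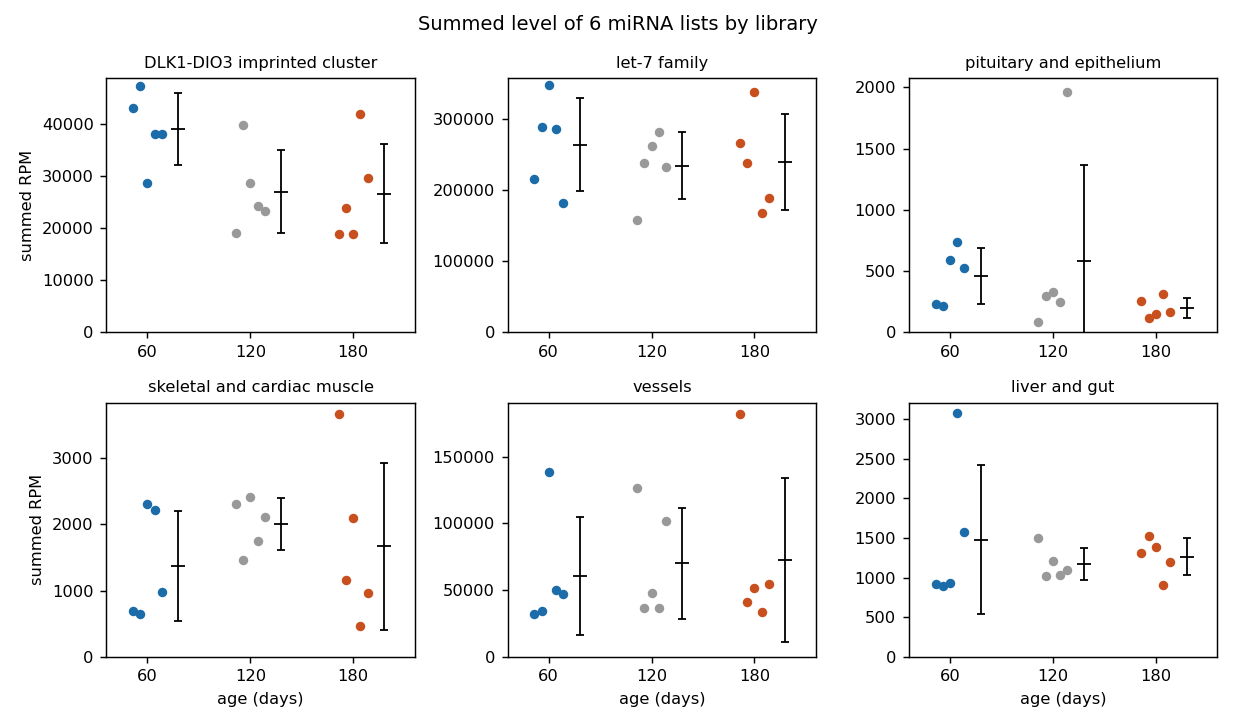
Summed RPM of 6 miRNA lists in every library at 60, 120 and 180 days, 5 points an age, with mean and SD (vertical axes start at 0, SD bars cut there). The DLK1-DIO3 sum averages 39002 RPM on day 60 and 26618 RPM on day 180, and the highest vessel and muscle sums on day 180, 181599 and 3665 RPM, come from the same library.

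Of the brain cell lists, neuron markers lay lower in 13 of 21 tested arms (median -0.12), close to the median of all tested, and the sign of their median turned with median-of-ratios scaling (0.01), with quantile scaling (0.03), and with edgeR's TMM (0.02). With a library left out, between 9 and 19 of the 21 lay lower, against 213 to 292 of 414 of all tested. The median of the neuron markers ran from -0.40 (without replicate 3 of day 60) to 0.08 (without replicate 1 of day 180). Their member with the smallest unadjusted p was miR-383, at 197 ± 68.5 and 91.4 ± 26.4 RPM (-1.07, SE 0.56, unadjusted p = 0.0663). Astrocyte and glial markers lay higher in 15 of 23 (median 0.19, and 0.03 without replicate 4 of day 60), among them miR-26a-5p at 44526 ± 17451 and 58660 ± 12379 RPM. The miR-29 family within it, which target extracellular matrix genes, lay higher in 5 of 5 (median 0.58), but in 4 of 5 without replicate 3 of day 60 (median 0.15), with miR-29c-5p at 39.0 ± 15.5 and 58.6 ± 15.6 RPM. Oligodendrocyte markers divided evenly, 2 of 4 higher (median 0.11), with miR-338-5p at 2676 ± 971 and 3024 ± 2317 RPM. Microglial and immune markers lay higher in 6 of 11 (median 0.13). Their miR-150, a lymphocyte miRNA, had the smallest unadjusted p (0.0561; 315 ± 67.7 and 166 ± 92.8 RPM), and its difference of -1.29 was -0.64 without replicate 3 of day 180. No miRNA of these 5 lists had an unadjusted p under 0.05.

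The list for choroid plexus and multiciliated cells lay lower in 4 of 7 (median -0.33, and -0.19 without replicate 2 of day 60). The choroid plexus miRNA miR-204-5p, the most abundant of that list, measured 2684, 8686, 10845, 7643 and 2285 RPM on day 60 and 4399, 2430, 3386, 4425 and 3189 RPM on day 180, with 3 day-60 libraries above the day-180 range, 1 inside it and 1 below. Its difference was -0.62, and -0.37 without replicate 3 of day 60. Lists of growth and the cell cycle stood near 0: the miR-17-92 cluster and its paralogs lay lower in 9 of 18 (median 0.00434), miR-15, miR-16, miR-195 and miR-497 in 4 of 8 (0.08), and the miR-424, miR-503, miR-542 and miR-450 cluster in 4 of 6 (-0.11). The metabolic miR-103 and miR-107 lay lower in 2 of 3 (-0.04). With median-of-ratios scaling the medians of these last 2 lists turned to 0.0048 and 0.09. The miR-30 family lay higher in 7 of 11 (0.17), and miR-101 with miR-340 and miR-374, a list grouped on earlier results of these libraries, in 6 of 7 (0.25, and 4 of 7 with a median of 0.0098 without replicate 4 of day 60). With 1 library of these ages left out, medians on both sides of 0 were also measured for the oligodendrocyte (-0.16 to 0.44), miR-30 (-0.02 to 0.28), microglial (-0.26 to 0.26), vessel (-0.23 to 0.23), muscle (-0.14 to 0.30) and liver and gut (-0.09 to 0.46) lists. The same held for miR-103 and miR-107 (-0.35 to 0.27), miR-17-92 (-0.12 to 0.20), miR-15 and relatives (-0.11 to 0.27) and the miR-424 cluster (-0.40 to 0.15), so for these lists the side of 0 depended on single libraries.

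**Figure D5:**
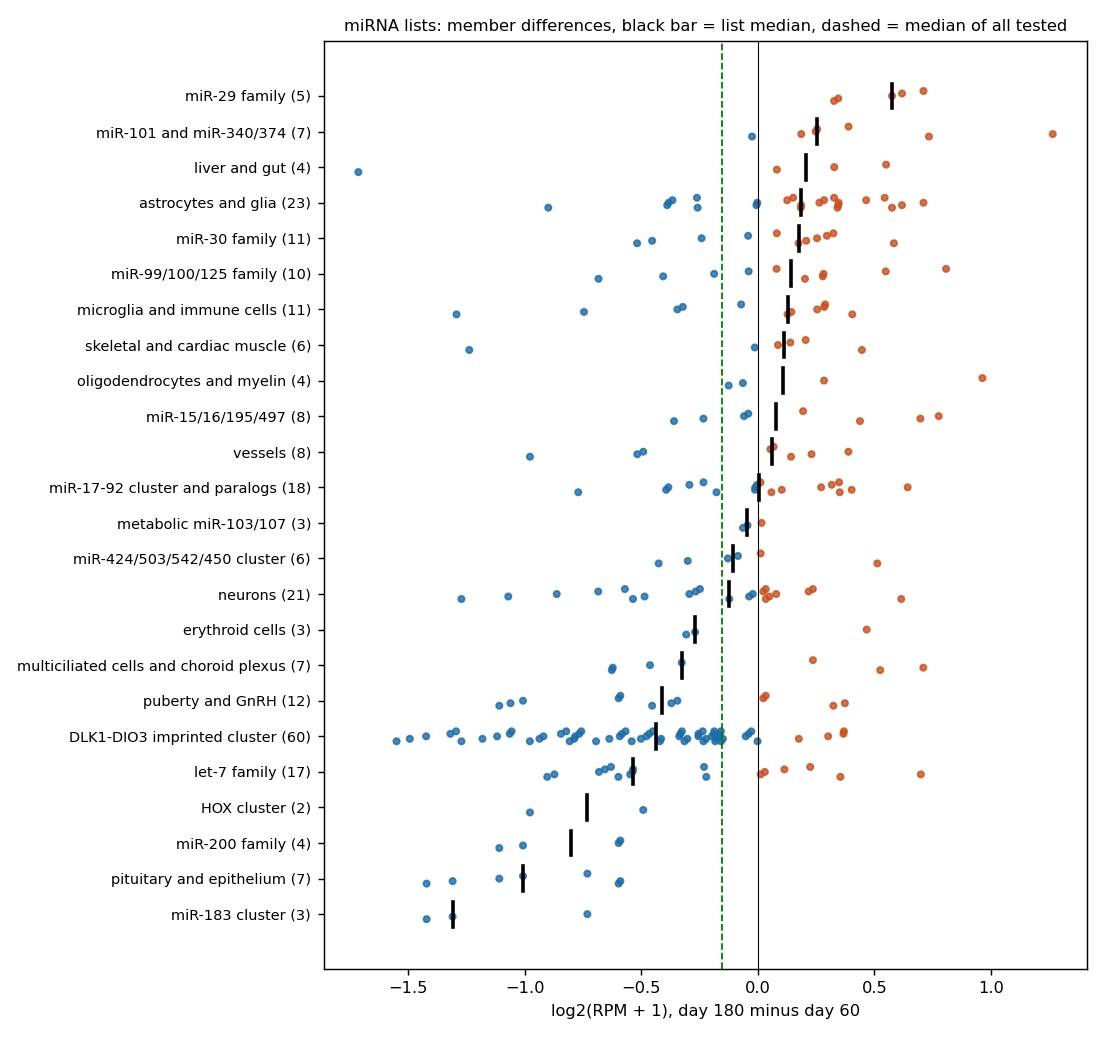
Difference in mean log2(RPM + 1), day 180 minus day 60, of each tested arm (points, blue below 0 and orange above) in 24 miRNA lists, with the number tested in brackets, the list median as a black bar and the median of all 414 as a dashed line at -0.15. The miR-183, epithelial, miR-200, HOX, let-7 and DLK1-DIO3 lists have the lowest medians and the miR-29 family the highest.

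A plain ratio of the 2 arms of 1 precursor inside a library does not depend on how the library was scaled. The ratios here had 1 RPM added to each arm, which leaves some dependence, most for arms of low level. Of the 151 precursors with both arms in the table, 67 had both at 10 RPM or more on average over the 20 libraries and were tested. limma called 0 of these log2 ratios of 5p to 3p (0.0%; smallest adjusted p = 0.936), and 1 had an unadjusted p under 0.05 (1.49%). That 1 was miR-338, an oligodendrocyte miRNA: its 5p arm exceeded the 3p arm by 3.74 ± 0.69 on the log2 scale on day 60 and by 2.65 ± 0.56 on day 180 (SD, n = 5; difference -1.09, SE 0.43, unadjusted p = 0.0197). The 5p arm stood at 2676 ± 971 and 3024 ± 2317 RPM, and the 3p arm at 227 ± 158 and 449 ± 242 RPM. The dominant arm was the same at both ages for 66 of the 67 precursors. The exception was miR-369, whose ratio averaged 0.16 ± 1.55 on day 60 and -0.51 ± 1.05 on day 180, a difference well within its spread (-0.67, SE 0.69).

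After miR-338, the smallest unadjusted p-values with a lower ratio on day 180 were those of miR-7 (-1.43, SE 0.72), miR-30f (-0.73, SE 0.42), miR-27b (-0.65, SE 0.38) and miR-105b (-0.82, SE 0.50). With a higher ratio they were those of miR-128 (0.76, SE 0.43), miR-2411 (0.66, SE 0.42), miR-191, miR-3431 and miR-30b. For miR-7 the 3p arm averaged 25.1 RPM on day 60 and 28.1 RPM on day 180 while the 5p arm was among the most abundant miRNAs.

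The spread between animals was of the same order at both ages. The SD of log2(RPM + 1) over the 5 animals had a median of 0.72 on day 60 and 0.67 on day 180 over the 414 tested miRNAs, and was larger on day 180 for 173 of them (41.8%). The 10 most abundant miRNAs were led by miR-9-5p (13.9% of RPM over the 10 libraries), miR-7-5p (11.1%), let-7f-5p (7.30%) and miR-143-3p (5.76%). They were followed by let-7a-5p, miR-26a-5p, let-7g-5p, miR-100-5p, miR-27b-3p and let-7i-5p. The smallest unadjusted p among these 10 was 0.124, of miR-100-5p.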

How the data were processed

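Total RNA was extracted with Trizol and turned into small RNA libraries with a NEBNext kit, per the labels' protocols. The authors deposited RPM values for 683 miRNAs in 20 libraries, and the columns are headed TPM. The submitters' processing notes name Bowtie, with no version. The counter, miRNA catalogue and genome build are not given in these sources. Dividing each library by the worth of 1 read returned whole reads for 100% of values, within 0.1 read. Recovered reads cover counting error only.

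The main test was limma 3.58.1 (R 4.3.3; eBayes with a trend, two-sided) on log2(RPM + 1), with 4 stage means over 20 libraries, the contrast of day 180 with day 60, and Benjamini-Hochberg adjustment over 414 miRNAs. A pseudocount of 1 understates changes of low miRNAs. Alternatives were pseudocounts, filters, scalings, no trend, 2 stages only, a replicate block, libraries left out, edgeR 4.0.16 and DESeq2 1.42.0. The limma, edgeR and DESeq2 tests of single miRNAs were tried on simulated reads with known changes. Arm ratios, library measures and lists were not simulated. The 5 libraries of an age did not agree within sampling noise (smallest chi-square per degree of freedom 1610 over 20 pairs). Named are 10 known miRNAs a direction by unadjusted p, at 10 RPM or more at either age, since none passed; the 10 most abundant; list members with the highest level or smallest p; and 5 arm ratios a direction. Members and lists were chosen with earlier results of these data known. 24 of 25 lists had members in the table.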

Additional observations from a re-analysis of the deposited data

Results flagged for a closer look

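Libraries far from the other 4 of their age were looked for by the gap to the nearest of the others, divided by the range of the group (above 0.71 for 5 libraries). Of 94 groups of 5 values 7 stood out (7.45%), where chance flags about 1 in 20. miR-122 measured 2540 RPM in replicate 4 of day 60, against 124 to 233 RPM in the others, and 10.9 RPM in replicate 5 of day 180, against 123 to 142 RPM. miR-150 measured 19.5 RPM in replicate 3 of day 180, against 151 to 269 RPM. miR-30a-5p measured 8452 RPM in replicate 5 of day 180, against 3758 to 4730 RPM. miR-200b measured 117 RPM in replicate 4 of day 180, against 62.5 to 71.5 RPM. Replicate 3 of day 60 had 4353384 recovered reads, against 6251258 to 6426370. The median log2(RPM + 1) was 4.74 in replicate 1 of day 180, against 5.21 to 5.40 in the others.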

How the results depend on the processing

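The count of 0 miRNAs past the adjusted test stayed at 0 in all 32 alternatives run, with a smallest adjusted p from 0.109 (DESeq2) to 0.999, and that of the arm ratios stayed at 0 in 27. The number at an unadjusted p under 0.05, 20 in the comparison as reported, was 36 with only the 2 stages fitted, 32 without replicate 2 of day 1, 31 with DESeq2, 13 with a filter at 10 RPM, 13 without replicate 1 of day 180 and 10 without replicate 5 of day 180. The labels do not say that the replicate numbers pair the animals. Same-numbered libraries had deviations from their age means correlated at -0.71, -0.05, 0.13, 0.22 and 0.54. Differently numbered libraries had correlations from -0.52 (replicate 5 of day 60 with replicate 1 of day 180) to 0.67 (replicate 3 of day 60 with replicate 1 of day 180). Whether same-numbered libraries share a factor was not tested. With the replicate number as a block 0 miRNAs and 0 arm ratios were called, and 22 miRNAs had an unadjusted p under 0.05. The differences of 33 miRNAs were followed: the 20 named and the list members with the smallest unadjusted p. Of these, 32 kept their direction throughout. They were chosen from these same data by unadjusted p, so this is no separate support, and the share over all tested was not counted. miR-103-5p, at -0.06, reversed to 0.26 with a pseudocount of 0.1, 0.079 with median-of-ratios and 0.12 with quantile scaling, and ran from -0.35 to 0.17 with a library left out. With a library left out, the difference in recovered reads ran from 841341 to 1619800 (exact p = 0.0159 without replicate 3 of day 180), that in miRNAs at 1 RPM or more from -6.35 to 4.15, and that in the share of the 10 most abundant from -0.28 to 3.05 percentage points.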

Other observations

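The numbered predictions, miRNAs of the table without a known name, were few among the tested (57 of 414). The smallest unadjusted p of the whole comparison belonged to 1 of them, at 1.53 ± 2.10 RPM on day 60 and 9.52 ± 6.45 RPM on day 180 (SD, n = 5; limma's adjusted p = 0.845). It was at 0 in at least 1 day-60 library and was picked out after its values were seen. A second, at 3.15 ± 2.32 and 9.87 ± 9.55 RPM, also lay higher on day 180 (unadjusted p = 0.0213). Of the 57, 39 lay lower on day 180 (median -0.26).

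In a run of 3 precursors outside the imprinted region, miR-105b-5p measured 46.2, 71.0, 26.2, 30.7 and 32.8 RPM on day 60 and 14.2, 13.5, 15.04, 25.3 and 13.4 RPM on day 180, without overlap (unadjusted p = 0.0481). Its neighbours miR-105a, at 259 ± 67.0 and 144 ± 84.7 RPM, and miR-767, at 55.9 ± 20.5 and 36.9 ± 10.05 RPM, lay on the same side of 0. These were chosen after their values were seen.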
